A study of Mus musculus with 16 samples.

Results

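NADPH oxidase subunits were followed in mouse pulmonary endothelial cells (ECs). The members are 7 genes taken by symbol from the 54532 genes of each expression table, whatever their values. They are the catalytic subunit of phagocytes (Cybb, NOX2), its membrane partner (Cyba, p22phox), the cytosolic subunits Ncf1 (p47phox) and Ncf4 (p40phox), the small GTPases Rac1 and Rac2, and Nox4, the catalytic subunit known from ECs and mesenchymal cells. All 7 genes had reads in all 16 libraries.

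NADPH oxidases move electrons from NADPH across a membrane onto oxygen and so make superoxide or hydrogen peroxide. NOX2 sits in the membrane as a dimer with p22phox and stays silent until the cytosolic subunits and a GTP-bound Rac join it, and neutrophils and macrophages use it for the respiratory burst. NOX4 also pairs with p22phox, needs no cytosolic subunit or Rac, and makes mainly hydrogen peroxide, so that its output is set largely by its abundance. In the lung, oxidants from leukocytes and from the endothelium are both known to act on the vascular barrier.

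RNA-seq was carried out in bulk on CD31+ CD45- cells, isolated from digested lung with magnetic beads, 24 h after an intratracheal injection. In the first experiment, the mice were WT males of the strain C57/BL6J, aged 8 weeks, and received saline (n = 4) or 10 mg/kg LPS (n = 6), the bacterial lipopolysaccharide used to model acute lung injury. In the second, Fgfr1 loxP/loxP mice (n = 3), which carry the floxed receptor gene as controls, and their littermates Fgfr1 iΔEC/iΔEC (n = 3), in which VE-cadherin-CreERT2 removes Fgfr1 from ECs, were both injected with tamoxifen and then received 2 mg/kg LPS, so that this experiment holds no library without LPS. The Fgfr1 mice were adults, whose age in weeks is not given in the sources used here, and replicates are separate samples as labelled. Values are FPKM, the fragments on a gene per kb of its length and scaled for the size of the library. Between 13478726 and 18807007 reads fell on genes in the saline libraries, 17840221 to 19043015 in LPS, 15969575 to 17002788 in loxP/loxP and 16642177 to 16943522 in iΔEC/iΔEC.

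The cell type label was checked against marker lists before the subunits were compared. Endothelial genes were high in every library, with Cldn5, a tight junction protein of ECs, the most abundant of the 10 and none at 0. Pecam1, which encodes CD31, was at 400.3 ± 81.5 FPKM (SD, n = 4) in saline and 358 ± 76.8 (n = 6) in LPS. Ptprc, which encodes CD45, the protein used for depletion, was at 6.97 ± 3.13 FPKM (n = 4) in saline and 34.6 ± 11.4 (n = 6) in LPS, so transcripts of leukocytes were read in both groups. Saline 1 had the most neutrophil transcripts of its group, where the 8 markers summed to 1403 FPKM against 76.0, 313 and 81.4 in saline 2, 3 and 4. Saline 3 was next, and the mean log2(FPKM + 1) of the 8 markers was 5.75, 2.59, 4.09 and 2.67 in saline 1 to 4. The subunits and the named pathway genes of the first experiment are therefore also given without saline 1. Marker lists, and levels set against them, are also given as the range without each of the 10 libraries in turn, an alternative chosen after seeing the data.

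The genes were located on GRCm38 as the files give them, and each is protein coding. Cybb lies at chrX:9435252-9487771 on the minus strand, Cyba at chr8:122424776-122432930 (minus), Ncf1 at chr5:134220053-134229625 (minus), Ncf4 at chr15:78244801-78262580 (plus), Rac1 at chr5:143503634-143528036 (minus), Rac2 at chr15:78559167-78572783 (minus) and Nox4 at chr7:87246096-87398710 (plus). Rac2 and Ncf4 are thus on the same chromosome. Reads were counted on genes, and the strand setting is not given in the sources used here. Gtf2ird2 overlaps Ncf1 on the opposite strand, and Daglb and Gm42502 overlap Rac1, so reads within these overlaps cannot be told apart by strand. In saline and LPS the highest level of the 3 partners was 4.92, 2.72 and 2.08 FPKM. Gm20388 overlaps Cyba on the opposite strand and was listed at 0 FPKM.

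The sequences before the start sites of both catalytic subunits are shown because Cybb and Nox4 are the pair on which the contrast rests. Promoters were taken from RefSeq on GRCm38.p6, where 4 of the 7 members had an entry (Cybb, Cyba, Ncf1 and Nox4). The 250 bases before the start are printed 5′ to 3′, Cybb from chrX:9469325-9469574 (minus) and Nox4 from chr7:87246399-87246648 (plus). Capitals mark the only match, on either strand, to the 3 motifs searched.
Cybb: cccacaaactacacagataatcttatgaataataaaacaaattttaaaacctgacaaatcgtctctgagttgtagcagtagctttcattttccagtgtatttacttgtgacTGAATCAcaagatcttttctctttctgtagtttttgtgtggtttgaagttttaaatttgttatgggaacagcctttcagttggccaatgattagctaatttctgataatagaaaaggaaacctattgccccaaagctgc
Nox4: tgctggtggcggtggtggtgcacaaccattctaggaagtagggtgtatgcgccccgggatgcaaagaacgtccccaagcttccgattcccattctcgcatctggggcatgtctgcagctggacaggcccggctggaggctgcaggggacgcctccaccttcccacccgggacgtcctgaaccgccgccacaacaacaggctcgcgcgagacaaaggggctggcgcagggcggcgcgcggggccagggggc

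The windows of 300 bases, from 250 before to 50 after the start, differed in base composition. The GC content was 35.3% for Cybb, with 1 CpG, and 68.3% for Nox4, with 24 CpG, against a median of 52.7% and 7 CpG over 32851 RefSeq promoters. A lower GC content than that of Cybb was found in 3.98% of all promoters, and a lower one than that of Nox4 in 88.0%. The match in Cybb is TGAATCA, 139 to 133 bases before the start, to the AP-1 type motif TGANTCA, which 7.81% of all promoters hold. The PU.1 type motif GAGGAAG (13.6% of promoters) and a motif of NF-kB type (1.63%) had no match in these windows of the 4 members. Both start sites lie within the longer gene models of the files. A match or a miss describes only these exact letters, and variants of the motifs were not searched.

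The first comparison asked how LPS changed the subunits in lung ECs of WT mice. The 5 phagocyte subunits (Cybb, Cyba, Ncf1, Ncf4 and Rac2) rose, Rac1 did not pass the test, and Nox4 was lower with a change under the fold limit. A gene was called where limma, fitted on log2(FPKM + 1) over all genes, gave a Benjamini-Hochberg adjusted p of 0.05 or less together with a log2 fold change of 1 or more in size. Higher calls were 5 of 7 members against 11.9% of the 14893 genes tested, and lower calls were 0 of 7 against 6.79%. The groups did not overlap in 5 of 7 members, all higher, while over all genes tested 39.4% did not overlap, with 22.7% of all genes higher and 16.7% lower. The pseudocount of 1 FPKM makes a fold on this scale smaller than the ratio of the levels for low genes such as Nox4.

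Cybb, the catalytic subunit of the phagocyte oxidase, was at 8.94, 7.10, 3.11 and 4.45 FPKM in saline 1 to 4. With LPS its lowest, median and highest values were 64.0, 93.6 and 152 FPKM. Every LPS library was above every saline library, with LPS 1 highest and LPS 6 lowest. The mean rose 16.4-fold, from 5.90 ± 2.62 (n = 4) to 97.0 ± 31.3 FPKM (n = 6). Cybb had a log2 fold change of 3.85 (SE 0.28, limma adjusted p = 2.35e-06), at rank 116 from the top among 14893 genes. Without saline 1 it was 4.06.

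Cyba, the membrane partner that NOX2 and NOX4 share, was the most abundant phagocyte subunit before LPS, at 90.3, 57.6, 73.6 and 58.1 FPKM in saline 1 to 4. It reached 322, 633 and 849 FPKM (lowest, median and highest) with LPS. Both groups were apart, and LPS 2 was highest. The mean rose 8.66-fold, from 69.9 ± 15.5 to 605 ± 187 FPKM, with a log2 fold change of 3.05 (SE 0.27, limma adjusted p = 7.70e-06).

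Ncf1, the organizer that carries the cytosolic complex to the membrane, was at 7.43, 7.12, 3.32 and 6.12 FPKM in saline 1 to 4. Its LPS values were 46.4, 79.3 and 129.9 FPKM (lowest, median and highest). Each LPS library exceeded each saline library, and LPS 1 and LPS 6 were again the highest and lowest. Ncf1 changed by 3.59 on the log2 scale (SE 0.27, limma adjusted p = 2.86e-06), from a mean of 6.00 ± 1.87 to 84.3 ± 28.0 FPKM.

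Ncf4, the regulator that binds membrane phosphoinositides, was at 12.1, 8.77, 3.69 and 6.56 FPKM in saline 1 to 4. With LPS the lowest, median and highest levels were 46.0, 100.7 and 141 FPKM. The lowest LPS library was thus still well above the highest saline library. Ncf4 changed by 3.57 on the log2 scale (SE 0.34, limma adjusted p = 1.40e-05), from a mean of 7.78 ± 3.55 to 103 ± 35.6 FPKM.

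Rac2, the Rac isoform of blood cells, was at 24.4, 17.7, 7.87 and 14.1 FPKM in saline 1 to 4 and at 58.4, 106 and 144 FPKM (lowest, median and highest) with LPS. The groups did not overlap. Its log2 fold change of 2.74 (SE 0.31, limma adjusted p = 4.14e-05) was the smallest of the 5, and the mean rose 6.85-fold, from 16.01 ± 6.91 to 109.6 ± 32.2 FPKM. In saline 3 all of Cybb, Ncf1, Ncf4 and Rac2 were at their lowest. Without saline 1 the log2 fold change was 3.18 for Cyba, 3.69 for Ncf1, 3.798 for Ncf4 and 2.97 for Rac2.

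Rac1, the isoform found in most cell types, was at 128, 98.4, 118 and 101 FPKM in saline 1 to 4. The LPS libraries ran from 126 through a median of 137 to 161 FPKM. Saline 1 lay within the LPS range, and 4 of 6 LPS libraries were above all saline libraries. The log2 fold change of 0.33 (SE 0.13, limma adjusted p = 0.0577) did not pass the test, and its sign depended on the scaling. Quantile normalization gave -0.30 and scaling on the endothelial list gave 1.04. Without saline 1 the adjusted p was 0.0264, with a log2 fold change of 0.40.

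**Figure D1:**
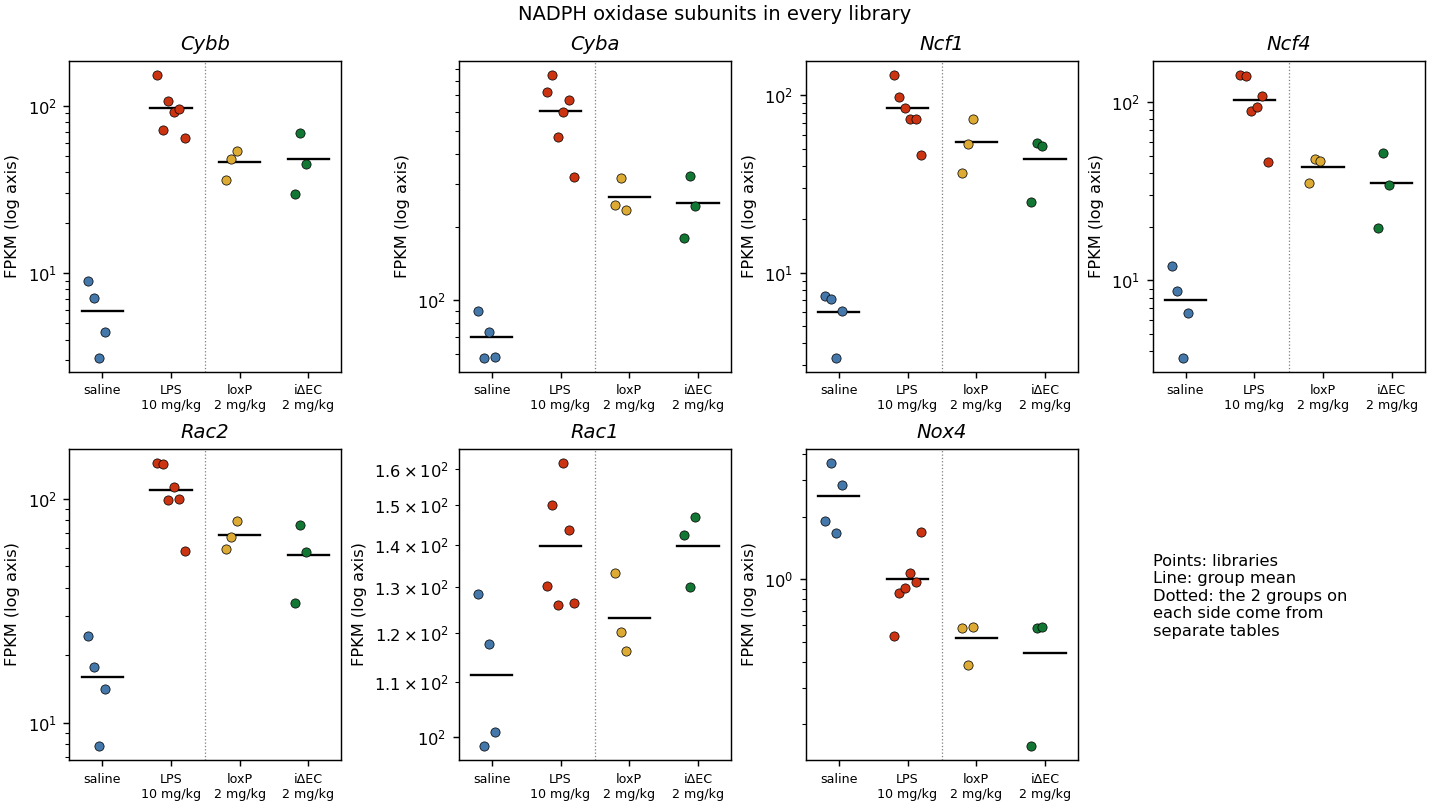
NADPH oxidase subunits in every library. Points are libraries in FPKM on a log axis, lines are group means, and the dotted line separates the experiments, which come from separate tables. The 5 phagocyte subunits are apart between saline and LPS, with Cybb at 3.11 to 8.94 against 64.0 to 152 FPKM, while Rac1 and Nox4 overlap.

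Nox4 ran the other way. It was at 1.90, 3.61, 1.67 and 2.84 FPKM in saline 1 to 4, from 213 to 677 reads. Its LPS values were 0.532, 0.937 and 1.68 FPKM (lowest, median and highest), from 83 to 271 reads. Of the 6 LPS libraries, 5 were below every saline library, and LPS 6, at 1.680, lay just above saline 3, at 1.666. The mean was 2.51 ± 0.896 FPKM (n = 4) in saline and 1.00 ± 0.378 (n = 6) in LPS, or 2.50-fold higher in saline.

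The log2 fold change of Nox4 was -0.79 (SE 0.19, limma adjusted p = 0.00466), which passed the limit on p and not the one on the fold. By adjusted p alone, 5 of 7 members were higher and Nox4 was lower, against 29.5% and 23.7% of all genes tested. The call depended on how low values were handled, since a pseudocount of 0.1 FPKM gave -1.24 (limma adjusted p = 0.00549) and limma-voom on the recovered reads gave -1.36 (limma adjusted p = 0.00209). With scaling on the endothelial list it was -0.38, and the limma adjusted p of 0.13 was past neither limit. Without saline 1 it was -0.87.

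**Figure D2:**
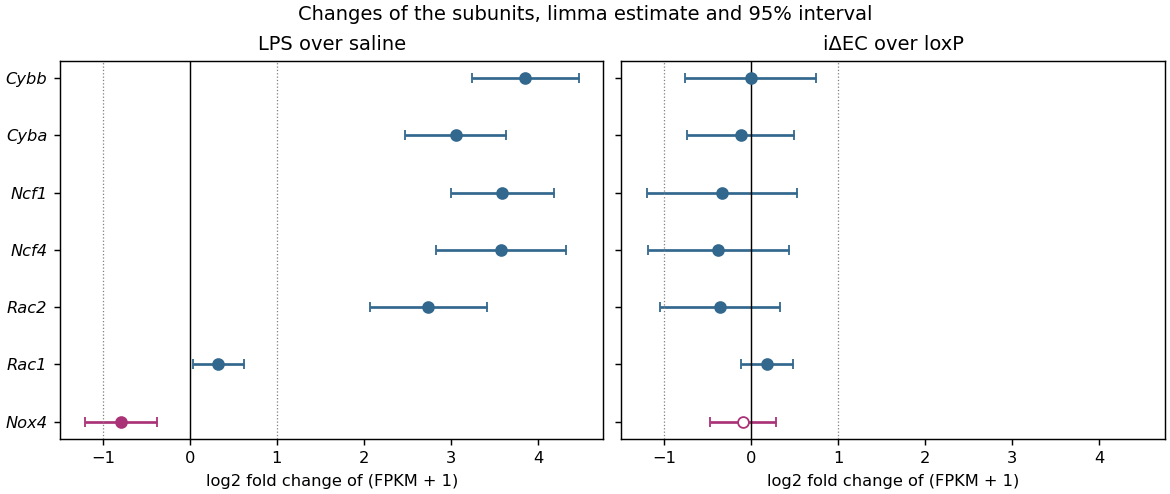
Changes of the subunits. Points are limma log2 fold changes of FPKM + 1 and bars their 95% intervals, for LPS over saline (left) and iΔEC/iΔEC over loxP/loxP (right). Dotted lines mark a log2 fold change of 1 in either direction, and the open point is Nox4 fitted without the filter on low values. On the left the phagocyte subunits lie between 2.74 and 3.85, Rac1 at 0.33 and Nox4 at -0.79; on the right all intervals cross 0.

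The contrast of Nox4 with Cybb was taken within each library as log2 of (Nox4 FPKM + 1) over (Cybb FPKM + 1), so that the scaling of the library bears on it only through the pseudocount. The ratio was -1.78, -0.81, -0.63 and -0.50 in saline 1 to 4. With LPS it ran from -6.64 (LPS 1) to -4.60 (LPS 6), so the groups were far apart. The mean was -0.93 ± 0.58 (n = 4) in saline and -5.58 ± 0.67 (n = 6) in LPS. The difference of -4.65 had a two-sided exact permutation p of 0.00952, the smallest that 4 against 6 libraries can give. Saline 1 had the lowest ratio of its group, and without it the difference was -4.93. With a pseudocount of 0.1 and all libraries it was -5.31 (exact permutation p = 0.00952). Mean FPKM rose 16.4-fold for Cybb and was 2.50-fold higher in saline for Nox4, so the larger part of the difference lay in Cybb.

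**Figure D3:**
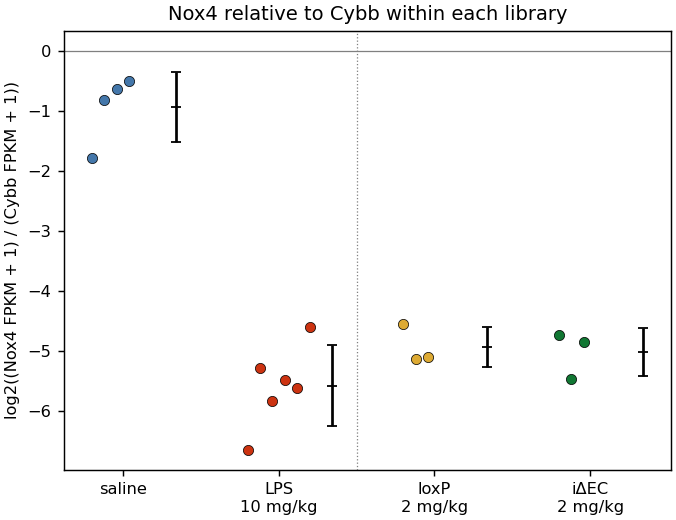
Nox4 relative to Cybb within each library. Points are log2 ratios of FPKM + 1, bars show the mean ± SD of each group, and the dotted line separates the experiments. The saline libraries lie between -1.78 and -0.50, and all libraries given LPS lie at -4.54 or lower.

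The order of levels differed between the groups. In saline it was Rac1, Cyba, Rac2, Ncf4, Ncf1, Cybb and Nox4, and in LPS Cyba, Rac1, Rac2, Ncf4, Cybb, Ncf1 and Nox4. Since FPKM is per kb, these levels are set side by side, with gene lengths from 1039 bases for Cyba to 8471 for Nox4. A length that exceeds that of the transcripts present lowers FPKM, so the order between genes is approximate. Rac1 exceeded Cyba in 4 of 4 saline libraries, and Cyba exceeded Rac1 in 6 of 6 LPS libraries, with no overlap of the ranges in either group. Rac2, Ncf4, Ncf1 and Cybb overlapped, each with the next of them in the order, in both groups. Nox4 overlapped with Cybb over the saline libraries, although it was lower than Cybb in each of them, and was far below every other subunit in LPS.

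Markers of leukocytes moved together with the phagocyte subunits. All 6 leukocyte genes of the list were called higher, and their mean log2(FPKM + 1) was 4.32 ± 0.52 in saline and 7.39 ± 0.41 in LPS, with the groups apart. Summed, they were 81.8 to 206 FPKM in saline and 755 to 1847 FPKM in LPS, with Coro1a, an actin-binding protein of leukocytes, the most abundant in each library and no gene at 0. Macrophage and monocyte genes were called higher in 7 of 8, with a list mean 3.13 higher in LPS and no overlap. They summed to 426 to 1206 FPKM in saline and 2204 to 4758 in LPS, with Lyz2, a lysozyme, the most abundant, and 1 of the 8 genes was at 0 in saline 1. Adgre1, which encodes F4/80, rose from 2.05 ± 0.999 to 61.1 ± 15.9 FPKM (log2 fold change 4.36, limma adjusted p = 4.69e-07, and 4.56 without saline 1).

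Neutrophil genes were called higher in 5 of 8, with a list mean 2.19 higher in LPS and overlapping groups. The neutrophil list ranged from 1.80 higher without saline 2 to 2.85 without saline 1, where alone the groups were apart. The leukocyte list ranged from 2.87 to 3.29 and the macrophage and monocyte list from 3.04 to 3.24, always with the groups apart. The neutrophil genes summed to 76.0 to 1403 FPKM in saline and 1282 to 6643 FPKM in LPS, led by S100a9, a calcium-binding protein of neutrophils, and 1 of the 8 genes was at 0 in saline 4. Lymphocyte genes were called lower in 3 of the 5 tested, with the list mean at 2.86 ± 0.76 in saline and 1.85 ± 0.48 in LPS. This difference of -1.01 ranged from -1.39 without saline 3, where alone the groups were apart, to -0.86 without saline 2. Endothelial genes were called lower in 3 of 10, and their list mean was 8.07 ± 0.11 in saline and 7.35 ± 0.41 in LPS, a difference of -0.72 with the groups apart. It ranged from -0.79 to -0.57 and the groups were apart without each library. In bulk samples fewer cells of a type and less RNA per cell cannot be told apart. The part of leukocyte transcripts in the rise of the subunits was not tested.

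Set against the leukocyte list in the same library, the phagocyte subunits differed less between saline and LPS than in FPKM alone. The log2 level minus the list mean was -1.62 ± 0.16 for Cybb in saline and -0.83 ± 0.27 in LPS, a difference of 0.78 with the groups apart. Ncf1 and Ncf4 differed by 0.52 and 0.50, also with the groups apart. For Cyba the difference was -0.02 and for Rac2 -0.33, both with overlap. Without each library in turn, the differences ranged from 0.74 to 0.89 for Cybb, 0.41 to 0.59 for Ncf1 and 0.43 to 0.57 for Ncf4, always with the groups apart. For Cyba the sign turned, from -0.13 without saline 2 to 0.22 without saline 3. For Rac2 the range was -0.41 to -0.28, and the groups were apart without saline 3, which gave -0.41. Against the macrophage and monocyte list the differences of the 5 genes lay between -0.39 (Rac2) and 0.72 (Cybb), and the groups overlapped for each of them. With a pseudocount of 0.1 they lay between -0.62 (Rac2) and 0.63 (Cybb), with Cyba moving from -0.08 to -0.37. Without saline 3 they were 0.45 for Cybb, 0.19 for Ncf1, 0.12 for Ncf4 and -0.72 for Rac2, and without saline 2 they were 0.89, 0.61, 0.60 and -0.24, which are the ends of the range over libraries left out. Cyba ranged from -0.17 without LPS 2 to -0.02 without LPS 6. The groups were apart for Rac2 without saline 3 and for Cybb without LPS 2. Against the neutrophil list the differences were larger, at 1.66 for Cybb, 1.40 for Ncf1, 1.38 for Ncf4, 0.86 for Cyba and 0.55 for Rac2, all with overlap. The lowest values came without saline 1, from 0.12 (Rac2) to 1.21 (Cybb), and the highest without saline 2, up to 2.16 (Cybb), all with overlap. Against the endothelial list the differences were larger than in FPKM alone. They were 4.57 for Cybb, 4.31 for Ncf1, 4.29 for Ncf4, 3.77 for Cyba and 3.46 for Rac2, with the groups apart. Without each library in turn they ran from 3.14 (Rac2, without saline 3) to 4.75 (Cybb, without saline 1), always with the groups apart. Against the leukocyte list the difference was -2.74 for Rac1 and -3.86 for Nox4, with the groups apart. Without each library in turn these ranged from -2.89 to -2.51 and from -4.16 to -3.69, always with the groups apart. The leukocyte list mean itself rose by 3.07, so a gene with an unchanged level would also be lower against it by about that much.

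Nox4 was set against the lists of cells in which it is known. Its log2 level minus the endothelial list mean was -6.29 ± 0.47 in saline and -6.37 ± 0.25 in LPS, a difference of -0.08 with overlapping groups. This value depended on the pseudocount, and with 0.1 FPKM the difference was -0.52, with overlap. It also depended on single libraries, from -0.23 without saline 3 to 0.11 without saline 2, where its sign turned. Minus the fibroblast list it was -0.83 ± 0.25 in saline and -1.15 ± 0.11 in LPS, and minus the mural list -0.80 ± 0.63 and -1.40 ± 0.17, each with overlap. Those differences of -0.32 and -0.60 became -0.76 and -0.96 with a pseudocount of 0.1. Without each library in turn they ranged from -0.43 to -0.24 and from -0.91 to -0.46, and the groups were apart only without saline 1, which gave -0.43 and -0.91. The fibroblast genes summed to 36.1 to 62.4 FPKM in saline and 19.3 to 45.8 FPKM in LPS, with 1 of the 7 at 0 in saline 3. Fibroblast genes were called in 0 of the 6 tested, and the list mean differed by -0.47. Mural genes were called lower in 1 of 7 and epithelial genes in 2 of 10, with list means that differed by -0.19 and -0.57 and overlapped. Without saline 3 the fibroblast list differed by -0.60 with the groups apart, and over all libraries left out its highest value was -0.38. The mural list ranged from -0.40 without saline 3 to 0.039 without saline 1, where its sign turned, and the epithelial list from -0.81 without saline 4 to -0.27 without saline 1. The part of fibroblast and mural transcripts in the level of Nox4 was not tested.

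**Figure D4:**
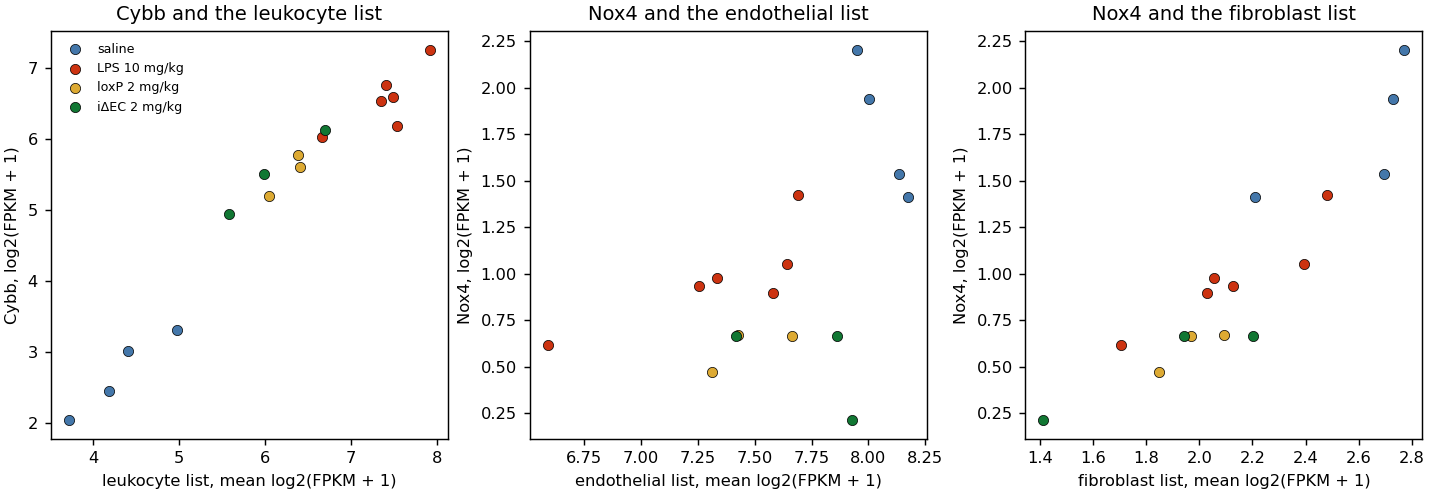
Subunits and marker lists across the 16 libraries, all axes in log2(FPKM + 1). Each point is a library, with Cybb against the mean of the leukocyte list (left) and Nox4 against the means of the endothelial (middle) and fibroblast lists (right). Saline libraries have the leukocyte list between 3.71 and 4.97 and LPS libraries between 6.66 and 7.91.

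Libraries within a group were used to see which genes varied with the catalytic subunits. Deviations of log2(FPKM + 1) from the mean of the own group were correlated over the 16 libraries, as a description, since all genes of a library share its cell composition and depth. Of 14191 genes, those most like Cybb were Nckap1l (Pearson r = 0.98), March1 (0.97), Ptprc (0.96), Celf2 (0.96) and Arhgap30 (0.96). Nckap1l encodes an actin regulator of blood cells and March1 a ubiquitin ligase of antigen-presenting cells. Most like Nox4 were Prelp (0.92), Abca8a (0.90), Vldlr (0.90) and C1qtnf7 (0.89), of which Prelp encodes a proteoglycan of connective tissue. Prelp was at 31.3 ± 9.85 FPKM in saline and 9.99 ± 2.56 in LPS.

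Among the members, Ncf4 and Rac2 were most alike, with r = 0.98. The pairs of Cybb, Ncf1, Ncf4 and Rac2 ranged from 0.82 to 0.98. Cyba was less like them, from 0.46 with Cybb to 0.78 with Ncf4. Nox4 had r = -0.02 with Cybb and -0.48 with Cyba, and Rac1 had -0.18 with Cybb.

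Other genes of the pathway were counted in 3 lists, beside a median log2 fold change of 0.01 over all genes tested, of which 11.9% were called higher and 6.79% lower. Of 11 further oxidase subunits and maturation factors, 3 passed the filter on low values, of which 1 was called higher and 0 lower, with a median of 0.90. Nrros, a protein of the endoplasmic reticulum known to limit the stability of NOX2, rose from 13.5 ± 0.900 to 47.1 ± 11.2 FPKM (log2 fold change 1.69, limma adjusted p = 2.52e-05). Cybc1, a chaperone of the NOX2 and p22phox dimer named here after its values were seen, was at 10.1 ± 1.04 and 19.8 ± 2.90 FPKM, with a log2 fold change of 0.90 that was under the fold limit (limma adjusted p = 2.25e-04) and past it, at 1.57, with scaling on the endothelial list. The remaining 8 genes did not pass the filter. The highest level was 0.476 FPKM for Nox1, 0.0284 for Nox3 and 0.65 for Noxo1, and Duox1 and Duox2 had at most 3 and 13 reads in a library.

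Among 10 genes of the Rac family and its activation, 4 were called higher and 0 lower, with a median of 0.89. Vav1, the exchange factor for Rac in blood cells, rose from 4.02 ± 1.63 to 47.6 ± 16.1 FPKM (log2 fold change 3.29, limma adjusted p = 7.70e-06). Arhgdib, a GDP dissociation inhibitor of blood cells that binds small GTPases, rose by 2.83 on the log2 scale, Rhog by 1.76 and Dock2, a Rac exchange factor of leukocytes, by 1.75.

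Of 10 kinases, adaptors and channels that act on the oxidase, 9 were tested, of which 4 were called higher and 1 lower, with a median of 0.44. Prkcd, a protein kinase C isoform that phosphorylates p47phox, rose from 10.1 ± 3.57 to 79.9 ± 24.8 FPKM (log2 fold change 2.86, limma adjusted p = 1.02e-05). Prkcb rose by 1.63 on the log2 scale. Pak1, a kinase activated by Rac, was at 0.456 ± 0.0972 FPKM in saline, under the filter of 0.5 FPKM on the mean of all libraries, so that it was tested only through its LPS level of 5.60 FPKM and had to differ. Its log2 fold change was 2.15, and 3.33 with a pseudocount of 0.1 and 3.61 with limma-voom. Without Pak1, 3 of the 8 other genes tested were called higher and the median was 0.39. Sh3pxd2a, which encodes the p47phox-related adaptor Tks5, fell from 32.2 ± 5.68 to 8.002 ± 2.81 FPKM, a change of -1.93 on the log2 scale (limma adjusted p = 4.73e-05), which was -1.25 with scaling on the endothelial list. Without saline 1 the log2 fold changes were 1.65 for Nrros, 0.95 for Cybc1, 3.39 for Vav1, 2.92 for Arhgdib, 2.01 for Rhog, 1.94 for Dock2, 3.06 for Prkcd, 2.20 for Pak1, 1.70 for Prkcb and -1.81 for Sh3pxd2a, with every call as before.

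The second comparison asked whether deletion of endothelial Fgfr1 altered the subunits in mice given LPS. Fgfr1 itself was at 2.90, 2.91 and 2.59 FPKM in loxP/loxP 1 to 3 and at 0.683, 1.41 and 1.15 FPKM in iΔEC/iΔEC 1 to 3. The groups were apart and the direction was that of the labels, though the log2 fold change of -0.88 had a limma adjusted p of 0.962. The fit called 0 of 14945 genes higher and 0 lower, with a smallest adjusted p of 0.742, and 661 genes had an unadjusted p under 0.05. limma-voom on the recovered reads also called 0 genes, with 608 under an unadjusted p of 0.05. Higher and lower calls, also by adjusted p alone, were thus 0 of 6 members tested against 0% of all genes. The groups did not overlap in 0 of 6 members and in 10.1% of all genes tested, with 6.02% higher and 4.09% lower in iΔEC/iΔEC.

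The groups overlapped for each subunit. Cybb was at 35.9, 47.9 and 53.7 FPKM in loxP/loxP 1 to 3 and at 29.7, 69.0 and 44.6 FPKM in iΔEC/iΔEC 1 to 3. Its range in iΔEC/iΔEC thus enclosed that of loxP/loxP. The log2 fold change was -0.01 (95% interval -0.75 to 0.74, limma adjusted p = 0.999).

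Cyba was at 247, 319 and 235 FPKM in loxP/loxP and at 180.1, 327 and 245 FPKM in iΔEC/iΔEC, in the order of the replicate numbers. Cyba had a log2 fold change of -0.12 (95% interval -0.73 to 0.49). Ncf1 was at 36.6, 53.3 and 73.2 FPKM in loxP/loxP and at 25.2, 53.6 and 51.9 FPKM in iΔEC/iΔEC. In both genes iΔEC/iΔEC 1 was the lowest library. For Ncf1 it was -0.34 (-1.20 to 0.53).

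Ncf4 was at 35.0, 48.2 and 46.9 FPKM in loxP/loxP and at 19.8, 52.1 and 34.3 FPKM in iΔEC/iΔEC, with a log2 fold change of -0.38 (95% interval -1.19 to 0.43). Rac2 was at 59.9, 67.7 and 79.8 FPKM in loxP/loxP and at 34.3, 76.1 and 58.1 FPKM in iΔEC/iΔEC, with -0.36 (-1.05 to 0.34). The groups overlapped in both, and iΔEC/iΔEC 1 was again lowest. Without iΔEC/iΔEC 1 the log2 fold changes were -0.02 for Ncf4, -0.05 for Rac2, 0.01 for Ncf1, 0.10 for Cyba and 0.29 for Cybb.

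Rac1 was at 133, 120.2 and 116 FPKM in loxP/loxP and at 142, 129.9 and 147 FPKM in iΔEC/iΔEC. Of the iΔEC/iΔEC libraries, 2 of 3 were above all loxP/loxP libraries, and Rac1 was higher in iΔEC/iΔEC in 3 of 3 pairs of the same number. With the replicate block its limma adjusted p was 0.73. The log2 fold change was 0.18 (95% interval -0.12 to 0.48, limma adjusted p = 0.962) and turned to -0.086 with scaling on the endothelial list. In this comparison that scaling moved the median of all genes to -0.20. The intervals of this comparison come from the fit without the replicate block. They still allow a change past the fold limit for Ncf1, Ncf4 and Rac2, downwards.

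Nox4 was at 0.583, 0.388 and 0.591 FPKM in loxP/loxP and at 0.158, 0.584 and 0.588 FPKM in iΔEC/iΔEC, from 54 to 91 and from 22 to 84 reads. Its mean over these 6 libraries was below the filter of 0.5 FPKM, so its value is given from the fit without the filter, where the log2 fold change was -0.09 (95% interval -0.47 to 0.29, limma adjusted p = 0.928). iΔEC/iΔEC 1 was the lowest library and loxP/loxP 2 the next. The log2 ratio of Nox4 to Cybb was -4.93 ± 0.34 (n = 3) in loxP/loxP and -5.01 ± 0.40 (n = 3) in iΔEC/iΔEC. The difference of -0.08 had an exact permutation p of 0.9, where 3 against 3 libraries cannot go below 0.1. Within the 3 pairs the exact permutation p was 0.75, where 0.25 is the smallest possible. With a pseudocount of 0.1 and without the pairs, the difference was -0.30 (exact permutation p = 0.5).

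Marker lists overlapped between these groups as well. The list means differed by 0.27 for endothelial, -0.19 for leukocyte, -0.41 for neutrophil, -0.10 for macrophage and monocyte, -0.39 for lymphocyte, -0.12 for fibroblast, -0.18 for mural and -0.78 for epithelial genes, with overlap in each list. Within the pairs of the same number, the endothelial list was higher in iΔEC/iΔEC in 3 of 3, and the neutrophil, mural and epithelial lists were lower in 3 of 3. These directions were not tested, nor was the part of the endothelial list in the level of Rac1. The other lists and the levels of the remaining subunits differed in both directions among the pairs. Minus the leukocyte or the macrophage and monocyte list mean, Cybb was higher in iΔEC/iΔEC in every pair. Ncf1, Ncf4 and Rac2 were lower in every pair against both lists, and Cyba differed in both directions. Against either list the groups overlapped for these genes, except for Ncf1 against macrophages and monocytes (-0.24, apart). In level alone, 10.1% of all genes tested did not overlap between these groups. Against the neutrophil list the means differed by 0.41 for Cybb, 0.29 for Cyba, 0.08 for Ncf1, 0.04 for Ncf4 and 0.06 for Rac2. The groups overlapped for each of them there, and Ncf1 was higher in iΔEC/iΔEC in every pair. These differences were not tested. No gene of the marker lists was called, and no gene of the 3 pathway lists. iΔEC/iΔEC 1, lowest of the 6 libraries in all 5 phagocyte subunits, was also lowest in the leukocyte sum, at 344 FPKM against 449 to 776 in the other iΔEC/iΔEC libraries. Its leukocyte genes had Coro1a in front, at 104 FPKM, and none at 0. The part of this library's composition in its subunit levels was not tested.

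Levels at the lower dose are given beside those at the higher dose without a test, since dose, genotype and table all differ. Tamoxifen is also described only for the Fgfr1 mice. Cybb averaged 45.8 ± 9.10 FPKM (n = 3) in loxP/loxP with 2 mg/kg and 97.0 ± 31.3 (n = 6) in WT with 10 mg/kg. Nox4 averaged 0.521 ± 0.115 FPKM (n = 3) in loxP/loxP and 1.00 ± 0.378 (n = 6) in WT. The loxP/loxP and iΔEC/iΔEC groups, like WT given LPS, had Cyba first and Nox4 last in the order of levels.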

How the data were processed

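Per the labels and the methods of the study, the authors aligned reads to GRCm38 with HISAT2 2.0.5, counted them on genes with featureCounts 1.5.0-p3 and deposited FPKM per library. How reads were trimmed, how those with several alignments were treated and which annotation release was used are not given in the sources used here. FPKM, gene length and the value of a single read gave whole reads (within 0.01) for 100.0% of values.

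After division by median-of-ratios factors, log2(FPKM + 1) was fitted with limma 3.58.1 (R 4.3.3, intensity trend) within each experiment, over genes whose mean reached 0.5 FPKM, with Benjamini-Hochberg adjustment over all genes tested. The authors used DESeq2 on counts, which was not run here. The ratio of Nox4 to Cybb was compared by a two-sided exact permutation test. The fitting was tested on simulated data, in which no gene as low as Nox4 was changed and the cell composition did not vary between libraries. The p-values set a difference between groups against the spread between these samples. Other steps ran in Python 3.11.15 with scipy 1.17.1, numpy 2.4.6, pandas 2.3.3 and, for figures, matplotlib 3.10.9.

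The members, the pathway and marker lists and the rules were chosen with earlier results of these data known. The text names all members, up to 4 called genes of each pathway list (the largest changes and the gene the list is known for) and up to 5 genes most like Cybb and Nox4. Of the genes these rules take, 2 are not reported here. Cell type markers are named from the marker lists, Adgre1 after its values were seen.

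Same-numbered libraries of iΔEC/iΔEC and loxP/loxP deviated together, with correlations of 0.25, 0.18 and 0.19 over genes, so the numbers were taken as pairs, from the data alone. The reported fit does not use these pairs, which enter through the replicate block. The alternatives were no limit on the fold change, a pseudocount of 0.1, no filter, FPKM as deposited, scaling on total reads, quantile normalization, scaling on the endothelial list, limma-voom on the recovered reads, the replicate block and leaving out each library. For levels set against the marker lists, a pseudocount of 0.1 and leaving out each library were chosen after seeing the data.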

Additional observations from a re-analysis of the deposited data

Results flagged for a closer look

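In 4 of 52 groups of values, a library lay far from the others of its group, where chance flags about 1 group in 20, or 2.6. Saline 1 was the highest of its group for Rhog, at 103 FPKM against 48.3 to 55.3, and for Fgfr1, at 5.52 FPKM against 2.82 to 3.17. Saline 3 was the lowest of its group in the mean log2(FPKM + 1) of the fibroblast list, at 2.21 against 2.70 to 2.77, and of the lymphocyte list, at 1.72 against 3.18 to 3.31. None of the 7 subunits had such a library in saline or LPS. The cause of these values was not tested.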

How the results depend on the processing

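Cybb, Cyba, Ncf1, Ncf4 and Rac2 were called higher in LPS under all alternatives and without each library. Leaving out a library moved the log2 fold changes to 3.63 to 4.06 for Cybb, 2.94 to 3.22 for Cyba, 3.37 to 3.74 for Ncf1, 3.30 to 3.798 for Ncf4, 0.27 to 0.40 for Rac1, 2.46 to 2.97 for Rac2 and -0.91 to -0.65 for Nox4. For Rac1, quantile normalization reversed the sign (-0.30, limma adjusted p = 0.0277) and scaling on the endothelial list gave a call (1.04, limma adjusted p = 0.00125). That scaling moved the median of all genes to 0.57. For Nox4, a call came with no limit on the fold change (-0.79), a pseudocount of 0.1 (-1.24) and limma-voom (-1.36), and its limma adjusted p ranged from 0.00209 to 0.13 over the alternatives.

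The test as reported called 1768 genes higher and 1011 lower. Without a limit on the fold change the numbers were 4399 and 3529, with scaling on the endothelial list 4342 and 207, with a pseudocount of 0.1 2331 and 1840, and with limma-voom 2355 and 2008. Scaling on total reads gave 1373 and 1440 and quantile normalization 1366 and 1326. Without 1 library they ranged from 1641 to 1947 and from 910 to 1107. The numbers of saline and LPS libraries did not pair them, since same-numbered libraries had correlations of 0.10, -0.16, -0.21 and -0.12. With the replicate block, 1925 genes were higher and 1063 lower, and the ratio of Nox4 to Cybb differed by -4.88 over 4 pairs, with an exact permutation p of 0.125, the smallest that 4 pairs can give. Without 1 library the ratio differed by -4.93 to -4.43.

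Between iΔEC/iΔEC and loxP/loxP, 0 genes were called under every alternative, with 403 to 1154 genes under an unadjusted p of 0.05. The block changed no call. Rac1 was -0.086 with scaling on the endothelial list, which moved the median of all genes to -0.20. Without 1 library the log2 fold changes ranged from -0.31 to 0.29 for Cybb, -0.33 to 0.10 for Cyba, -0.59 to 0.010 for Ncf1, -0.70 to -0.02 for Ncf4, 0.14 to 0.24 for Rac1, -0.61 to -0.05 for Rac2 and, without the filter, -0.16 to 0.06 for Nox4, and the ratio from -0.23 to 0.14. The cause of these changes was not tested. Nox4 rested on 22 to 91 reads there, which limits its precision.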
